A study of Homo sapiens with 21 samples.

Results

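HCC4006ER is a lung cancer cell line that resists erlotinib, and HCC4006P1 is the parental cell line from which it was derived. The members were chosen by their cell line labels, HCC4006P1_A, HCC4006P1_B, HCC4006ER_A and HCC4006ER_B, and are 4 of the 21 libraries of the study, with 2 libraries for each cell line. The letters A and B are called replicates 1 and 2 here. The study compared cancer cell lines made drug resistant in culture with the parental lines they came from, by sequencing messenger RNA. HCC4006 is an established line of EGFR-mutant lung adenocarcinoma, and its resistant derivative was kept in rising doses of erlotinib over months. Both cell lines were grown in RPMI medium with fetal bovine serum, and the libraries were made with a stranded kit for polyadenylated RNA. HCC4006P1 is labelled sensitive with no drug, and HCC4006ER resistant with erlotinib as the drug. The labels do not state whether erlotinib was in the medium when RNA was taken, nor whether the replicates were separate cultures, so the p-values below measure the spread between libraries and no more. A second pair from the same line, the parental HCC4006P2 and the gefitinib-resistant HCC4006GR, has 1 library for each cell line and serves to test where the erlotinib pair differs from it and to give levels in a second parental stock and its resistant line.

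EGFR is a receptor tyrosine kinase that drives growth through the RAS and ERK cascade, and in lung cancers with an activating EGFR mutation this signal sustains the tumour cells. Erlotinib and gefitinib block the kinase by competing with ATP. Resistance can arise with a change of the cells from an epithelial state, with keratins, tight junctions and E-cadherin, towards a mesenchymal state, with a contractile cytoskeleton and secreted matrix, and this change is called epithelial-mesenchymal transition, or EMT.

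The libraries of HCC4006P1 held 18713124 and 19498932 counts on genes, and those of HCC4006ER 19763806 and 19471160. In HCC4006P1 replicate 1 the counts end within chromosome 7 when chromosomes are read in alphabetical order. Among genes with at least 50 counts in replicate 2, the last with counts in replicate 1 is GARS1-DT, which lies at chr7:30555925-30634902 of GRCh37 and had 113 and 77 counts in the parental replicates. The next such gene, GARS1, had 0 counts in replicate 1 and 10307 in replicate 2, and a single count lies further on in replicate 1. The missing stretch, with the rest of chromosome 7, chromosomes 8, 9, X and Y and the mitochondrial genes, held 18.1% of the counts of HCC4006P1 replicate 2 and 17.5% of those of each HCC4006ER library. Levels are therefore given as CPM, the counts of a gene scaled to 1000000 counts on the genes before this point, so that all 4 libraries share a scale. Genes before the point were tested with 4 libraries. Genes of the missing stretch were tested with 3, leaving out HCC4006P1 replicate 1, and the single parental library was assumed to vary like those of HCC4006ER. On the genes before the point the replicates of HCC4006P1 varied more than those of HCC4006ER. Their chi-square per degree of freedom was 34.5, against 5.96 for HCC4006ER, so errors from 3 libraries can be too small. A gene with 3 counts in a library had 0.165 and 0.194 CPM in the parental libraries and 0.188 and 0.191 CPM in the resistant ones. The limit of detection was taken as 3 counts over the libraries of a cell line, a mean of 0.0889 CPM in HCC4006P1 and 0.0949 CPM in HCC4006ER.

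**Figure D1:**
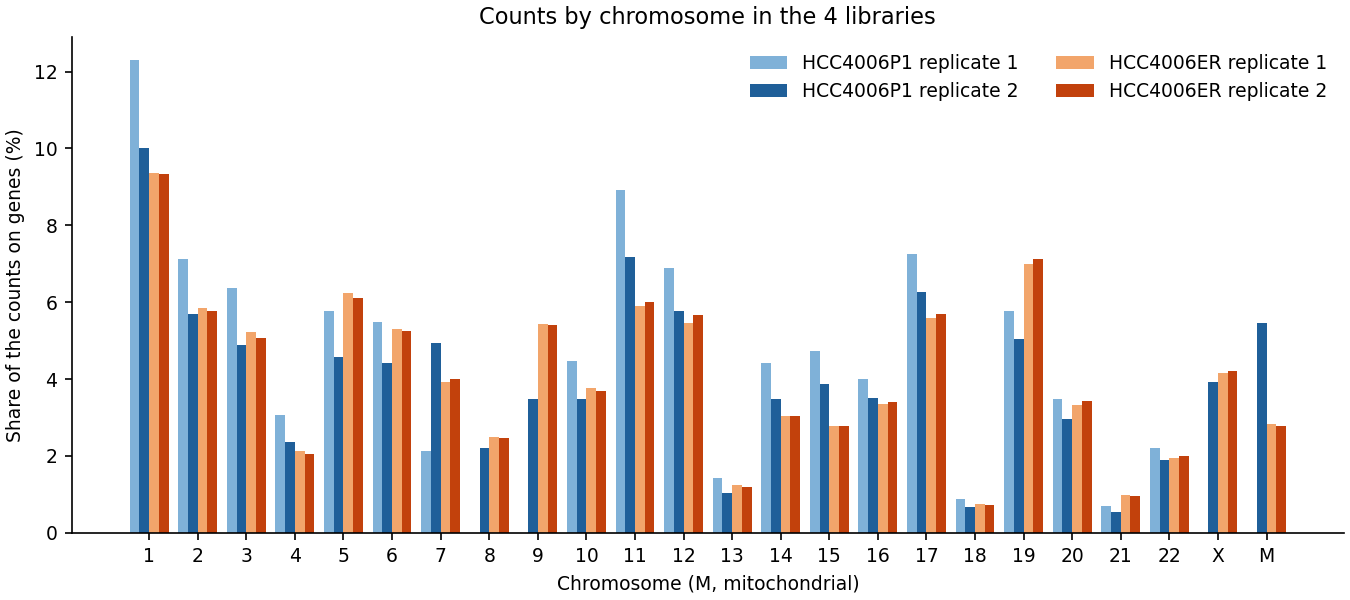
Share of the counts on genes that falls on each chromosome, in percent, with 1 bar for each of the 4 libraries. HCC4006P1 replicate 1 has a short bar on chromosome 7 and none on chromosomes 8, 9, X and the mitochondrial genes, where the other 3 libraries have counts.

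In the lists described below, most epithelial genes fell and most mesenchymal genes rose between HCC4006P1 and HCC4006ER. Some of them went from or to 0 counts, though most were counted in both cell lines. KRT19, a keratin of simple epithelia, had 1991 and 1896 CPM in the parental libraries and 3.27 and 1.97 CPM in the resistant ones. SPARC, a secreted collagen-binding protein, had 0.219 and 0.645 CPM in the parental libraries and 9028 and 8713 CPM in the resistant ones. The groups lie far apart for both genes, with the replicates of a cell line close to each other beside the gap between the cell lines. Of 12791 genes tested with 4 libraries, 3084 (24.1%) rose and 3181 (24.9%) fell, 6265 (49.0%) in all, by edgeR's quasi-likelihood test with a Benjamini-Hochberg adjusted p under 0.05. Under total-count scaling 3427 rose and 2814 fell, so that the larger side changes. Without HCC4006ER replicate 1 the count was 4047, and without HCC4006ER replicate 2 it was 4185. The change was at least 2-fold for 1814 of the genes that rose and 1692 of those that fell. The cell lines did not overlap for 9882 of the 12791 genes, called or not, so a gap between them was common. Of 2386 genes tested with 3 libraries, 918 (38.5%) rose and 609 (25.5%) fell, or 64.0% of them, a share that rests on the spread of the HCC4006ER replicates. The same 3 libraries gave 8370 calls on the genes before the point, where 4 libraries gave 6265, and 98.7% of the calls from 4 libraries were among them. Both fits together tested 15177 genes, of which 51.3% were called, 26.4% up and 25.0% down, and the median log2 fold change was 0.03. Each gene list below is described by the same counts and median. Genes with low counts were filtered out before testing. A gene near 0 in a cell line was therefore tested only if high in the other, which fixes its direction. Scaling by total count in place of edgeR's TMM factors moved the median of all genes by 0.08 with 4 libraries and by 0.13 with 3.

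**Figure D2:**
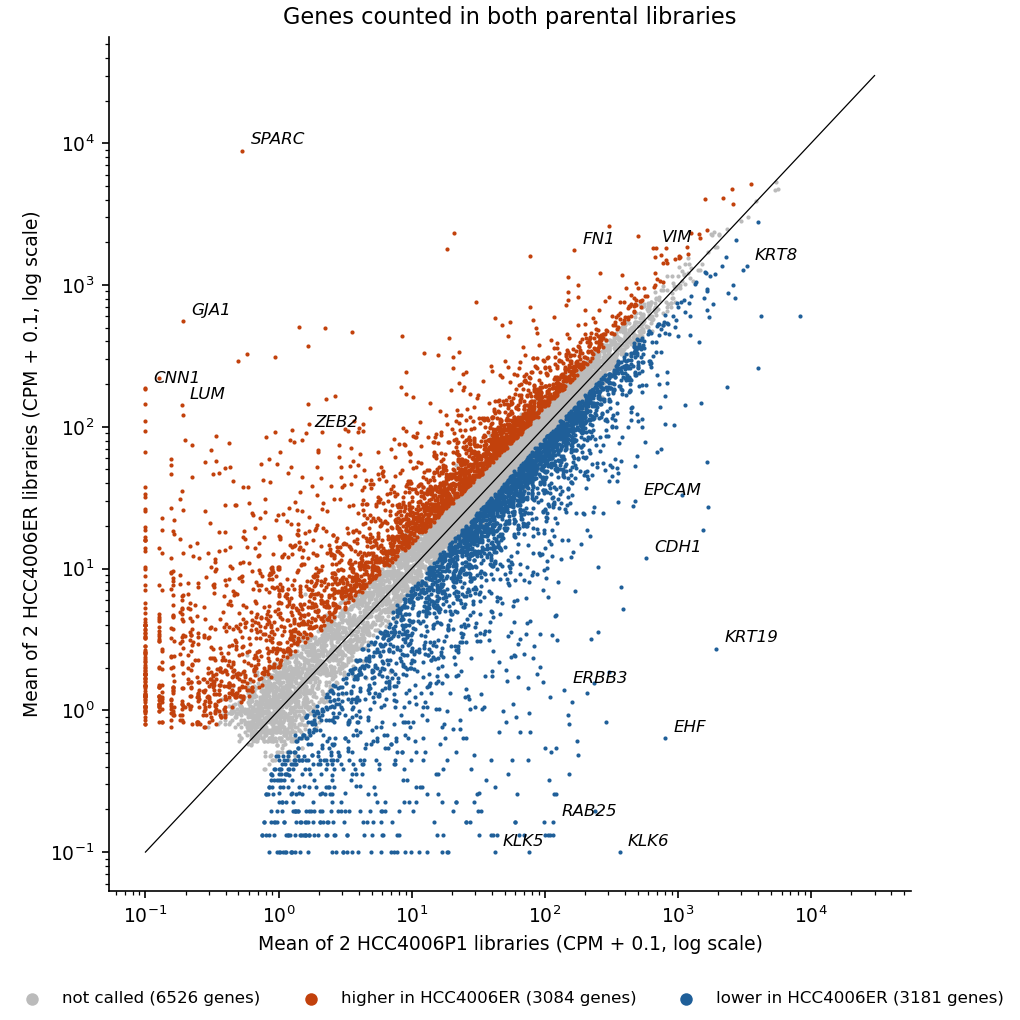
Mean CPM of the 2 HCC4006P1 libraries against mean CPM of the 2 HCC4006ER libraries for the 12791 genes tested with 4 libraries, both on log axes after adding 0.1. Of these genes 3084 lie above the line of equal levels and were called higher in HCC4006ER, and 3181 lie below it and were called lower.

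The labelled cell type was checked against markers. All 8 epithelial markers fell, with a median log2 fold change of -4.89, and their summed level was 10389 CPM in HCC4006P1 replicate 1, where CLDN4 is missing, 11242 CPM in replicate 2, and 2082 and 2583 CPM in HCC4006ER. Both parental libraries are high and both resistant libraries low, and the keratins KRT8 and KRT18 make up most of what is left. Lung lineage markers were divided, some of them close to absent in both cell lines. NKX2-1, the transcription factor that marks lung adenocarcinoma, had 0.165 and 0 CPM in HCC4006P1 and 0 in both HCC4006ER libraries, and in the second parental stock, HCC4006P2, it had 140 CPM. SLC34A2, the phosphate transporter of alveolar type II cells, had at most 0.0637 CPM in the 4 libraries and 3833 CPM in HCC4006P2. NAPSA, the aspartic protease napsin A, had 0.165 and 0.0645 CPM in HCC4006P1 and 0.314 and 0.509 CPM in HCC4006ER. Of 22 genes of the wider lung lineage list, 11 passed the filter on low counts, 2 rose, 7 fell and the median was -1.73 (-0.13 with DESeq2, whose fit holds more of the low members), and the number that rose was 4 without HCC4006P1 replicate 2 and 1 without either HCC4006ER replicate. ABCA3, the lipid transporter of alveolar type II cells, was present, with 21.1 and 15.6 CPM in HCC4006P1 and 25.3 and 31.8 CPM in HCC4006ER. FOXA2, a factor of the airway epithelium, had 7.79 and 9.68 CPM in HCC4006P1 and 0.126 and 0.127 CPM in HCC4006ER, a log2 fold change of -6.11 ± 0.39 (SE).

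Markers of fibroblasts moved the other way. All 7 tested of 9 rose, with a median of 9.58 as fitted and 8.38 with the gene at 0 taken at its bound (as fitted, 10.82 without HCC4006P1 replicate 1 and 8.87 without HCC4006ER replicate 1), and their sum was 22.5 and 20.1 CPM in HCC4006P1 and 2115 and 1813 CPM in HCC4006ER. COL1A2, which HCC4006P1 replicate 1 lacks, was the most abundant of them in HCC4006ER, and COL1A1, with 21.3 and 19 CPM, in HCC4006P1. Tested markers other than COL1A1 were near 0 in HCC4006P1 and could pass the filter on low counts only through HCC4006ER. A fall could not have been called for them. THY1 and FAP were too low to test, and FAP had at most 0.188 CPM. THY1 had 0.878 and 0.452 CPM in HCC4006P1 and 0.251 and 0 CPM in HCC4006ER, and it was tested and fell without HCC4006P1 replicate 2 and without HCC4006ER replicate 1. The part of these markers in the other results was not tested. In bulk RNA a change in the share of cells of a kind and a change of RNA per cell cannot be told apart. Of 7 endothelial markers 2 were tested and 1 fell, of 7 blood markers 3 were tested and 1 rose (0 without HCC4006ER replicate 1) and none fell (1 without HCC4006P1 replicate 2), and of 6 neuroendocrine markers 2 were tested and 1 rose. The 7 liver markers were too low to test, with sums of 0.439 and 0.516 CPM in HCC4006P1 and 0.88 and 0.573 CPM in HCC4006ER.

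The EGFR family of receptors fell as a group, with all 3 tested of 4 called and a median of -2.54. ERBB3, the partner that couples EGFR and ERBB2 to PI3 kinase, had 178 and 103 CPM in HCC4006P1 and 1.13 and 1.46 CPM in HCC4006ER. ERBB2 had 152 and 121 CPM against 48.3 and 53 CPM, and EGFR had 1303 CPM in the single usable parental library against 241 and 249 CPM. For each receptor both resistant libraries lie below every parental library, and the ratio between the cell lines is largest for ERBB3. ERBB3 lies at chr12:56470583-56497289 of GRCh37, and its log2 fold change was -6.82 ± 0.34 (SE, adjusted p 2.6e-05, edgeR's quasi-likelihood test with Benjamini-Hochberg adjustment). The fold change of ERBB2 was -1.51 ± 0.14 on the log2 scale (adjusted p 3.3e-04, same test). That of EGFR was -2.54, from 3 libraries with a single parental one.

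Ligands of the family changed unevenly, with 2 of 10 tested up, 7 down and a median of -1.81. TGFA, a ligand of EGFR itself, fell from 84.4 and 119 CPM to 8.42 and 8.59 CPM. The neuregulin gene NRG1, which encodes a ligand of ERBB3, had 14.3 CPM in HCC4006P1 replicate 2 and 49.6 and 63 CPM in HCC4006ER. TGFA is low in both resistant libraries and NRG1 is high in both, beside the parental libraries. Among 12 inhibitors and adaptors of the receptors, 3 rose and 7 fell, with a median of -0.56. LRIG1, a transmembrane protein that promotes degradation of ERBB receptors, rose from 1.21 and 0.968 CPM to 24.6 and 28.7 CPM. CBLC, an epithelial ubiquitin ligase for EGFR, had 19.2 and 18.1 CPM in the parental libraries and 0 in both resistant ones, at least 197-fold lower. A gene at 0 in both libraries of a cell line is given a floor of 3 counts over the group here and below. For a gene with 1 to 3 counts in a cell line the ratio of the counts is given with its interval. Where 1 of 2 libraries holds all of these counts, the ratio becomes a bound without that library. Where a gene has some counts but under 3, the ratio divides by fewer counts than the floor, so such ratios and the bounds are not on the same scale. Floors and intervals cover counting error only.

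Other receptor tyrosine kinases were divided, with 11 of 25 tested up, 8 down and a median of 0.34. AXL, often linked to resistance to EGFR inhibitors, had 565 and 1049 CPM in HCC4006P1 and 1671 and 1959 CPM in HCC4006ER. It rose by 1.08 ± 0.30 (SE) on the log2 scale, with adjusted p 0.0246 by edgeR's quasi-likelihood test with Benjamini-Hochberg adjustment, and its parental replicates lie far apart. PDGFRB, the platelet-derived growth factor receptor of mesenchymal cells, went from 0.0549 and 0.194 CPM to 42.9 and 46 CPM. The log2 fold change of PDGFRB was 8.38 ± 0.33, and it was 7.66 without HCC4006P1 replicate 1 and 9.42 without HCC4006P1 replicate 2. FGFR1 had 10.8 CPM in HCC4006P1 replicate 2 and 106 and 116 CPM in HCC4006ER, and ROR2, a receptor for WNT5A, had 2.9 CPM against 75 and 70.5 CPM. MET, the hepatocyte growth factor receptor, ran the other way with 703 CPM against 159 and 178 CPM, as did its relative MST1R with 64.5 and 65.2 CPM against 2.89 and 3.25 CPM. Of 13 tested ligands of these receptors 4 rose and 6 fell, with a median of -0.58. GDNF, a ligand of the RET complex that is not in this list, had 0 counts in both parental libraries. It had 39.3 and 35.7 CPM in the resistant ones, at least 422-fold higher.

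Transcripts that follow ERK activity were lower in HCC4006ER, with 16 of 20 down, 2 up and a median of -1.58. DUSP4, a phosphatase that inactivates ERK, had 254 CPM in HCC4006P1 replicate 2 and 20.8 and 18.4 CPM in HCC4006ER. SPRY4, a feedback inhibitor of receptor signalling, had 40.4 and 35.3 CPM in HCC4006P1 and 2.45 and 3.63 CPM in HCC4006ER, and ETV4, an ETS factor induced by ERK, had 49.5 and 42.8 CPM against 4.84 and 4.46 CPM. In each of these 3 genes the resistant libraries lie together well under the parental ones. SPRY4 fell by 3.71 ± 0.23 (SE, adjusted p 5.4e-05) and ETV4 by 3.39 ± 0.17 (adjusted p 2.4e-05) on the log2 scale by edgeR's quasi-likelihood test with Benjamini-Hochberg adjustment. DUSP6, which inactivates ERK in the cytoplasm, had 62.8 and 25.5 CPM in HCC4006P1 and 15.4 and 14.9 CPM in HCC4006ER. The parental replicates of DUSP6 are far apart, and its log2 fold change of -1.61 became -0.88 without HCC4006P1 replicate 1. FOSL1, a component of AP-1, fell by 1.35, and by 0.48 without HCC4006P1 replicate 2. The 2 members that rose were EPHA4, an ephrin receptor, from 6.25 and 5.74 CPM to 41.8 and 47.9 CPM, and MYC, with 37.5 CPM in HCC4006P1 replicate 2 and 101 and 91.8 CPM in HCC4006ER.

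The EMT signature is the study's list of genes reported to take part in EMT. The split used here follows the paper's supplement, which marks fewer genes as epithelial than the paper's text states. Of its 13 epithelial genes 11 fell and 1 rose, with a median of -3.30, and of its 34 tested mesenchymal genes 29 rose and 3 fell, with a median of 2.28. The epithelial gene that rose is CTNNB1, called with all 4 libraries but not without either HCC4006ER replicate, and the mesenchymal genes that fell were 1 in place of 3 without HCC4006ER replicate 1. Among 18 tested EMT transcription factors 12 rose, 5 fell (3 without HCC4006ER replicate 1) and the median was 1.33. ZEB2, a zinc finger repressor of epithelial genes, had 1.92 and 1.1 CPM in HCC4006P1 and 97.7 and 83.4 CPM in HCC4006ER. ZEB1, its relative, had 10.4 and 7.68 CPM against 25.3 and 23.4 CPM, and TWIST1, a basic helix-loop-helix factor, 12.5 and 10.8 CPM against 56.7 and 54.9 CPM. All 3 factors are higher in both resistant libraries than in either parental library, and the gap is widest for ZEB2. ZEB2 rose by 5.80 ± 0.24 (SE) on the log2 scale (adjusted p 1.4e-05, edgeR's quasi-likelihood test with Benjamini-Hochberg adjustment), ZEB1 by 1.35 ± 0.19 and TWIST1 by 2.18 ± 0.14. SNAI2 had 11 CPM in HCC4006P1 replicate 2 and 67.9 and 57 CPM in HCC4006ER, while SNAI1 rose by only 0.71 and was not called without HCC4006ER replicate 1 (0.71) or replicate 2 (0.70). FOXC2, a forkhead factor of mesenchyme, went from 0.219 and 0.258 CPM to 8.99 and 10.8 CPM. HMGA2, a chromatin protein of embryonic cells, was among those that fell, from 46.7 and 64.1 CPM to 10.9 and 11.2 CPM.

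Epithelial transcription and splicing regulators fell with few exceptions, 17 of 19 tested, with 1 up and a median of -4.29. EHF, an ETS factor of epithelia, had 929 and 668 CPM in HCC4006P1 and 0.691 and 0.382 CPM in HCC4006ER, a log2 fold change of -10.59 ± 0.30 (SE, adjusted p 6.9e-06 by edgeR's quasi-likelihood test with Benjamini-Hochberg adjustment). GRHL2, a grainyhead factor that sustains junction genes, had 114 CPM in HCC4006P1 replicate 2 and 0.377 and 0.509 CPM in HCC4006ER. OVOL2, a repressor of ZEB1, had 6.53 and 7.16 CPM in the parental libraries and 0 in both resistant ones, at least 72.1-fold lower, and its relative OVOL1 was at least 92.2-fold lower. All of these were present in each usable parental library and at or near 0 in HCC4006ER. The splicing regulators ESRP1 and ESRP2, which set epithelial exon use, changed by different amounts. ESRP1 had 187 CPM in HCC4006P1 replicate 2 and 0.503 and 0.509 CPM in HCC4006ER, whereas ESRP2 had 70.5 and 83.9 CPM against 4.52 and 3.82 CPM. SPDEF, another ETS factor, was 953-fold lower (95% counting interval 263 to 7875), with 63.5 and 56.5 CPM against 0 and 0.127 CPM. The member that rose was TFAP2A, an AP-2 factor, from 26.9 and 27.5 CPM to 39.9 and 41.2 CPM, a log2 change of 0.49 that was not called without HCC4006ER replicate 1 (0.53) or replicate 2 (0.45).

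ZEB, SNAI and TWIST factors bind E-boxes. Promoters of genes that moved together were read for the E-box CAGGTG and its reverse complement CACCTG on both strands. Whether these factors act at them was not tested. The sequences are from RefSeq on GRCh38.p14 and span 250 bases before to 50 bases after the start of a gene. Of all 35116 promoters, whether or not their genes are expressed here, 7231 (20.6%) hold the motif, or 6571 of 27305 genes (24.1%). Among genes that fell in the epithelial lists, 47 of 78 were matched. The motif is in 28 of their 67 promoters (41.8%), or in 26 of the 47 genes (55.3%). Among genes that rose in the mesenchymal lists 39 of 56 were matched. There it is in 7 of 64 promoters (10.9%), or in 6 of the 39 genes (15.4%). Unmatched genes that fell include CDH1, EPCAM, GRHL2, ESRP1, ESRP2, OVOL2 and KRT19, and unmatched genes that rose include COL1A1, COL1A2, SNAI2 and TWIST1. The following 4 promoters were picked by hand from those that hold the motif, which is in capitals. They do not stand for the lists, and a match describes letters only. RAB25, on the plus strand at chr1:156060910-156061209, holds 2 motifs, AP1M2, on the minus strand at chr19:10587263-10587562, holds 3, ELF3, on the plus strand at chr1:202010337-202010636, holds 1, and KLK6, on the minus strand at chr19:50969542-50969841, holds 1.
RAB25: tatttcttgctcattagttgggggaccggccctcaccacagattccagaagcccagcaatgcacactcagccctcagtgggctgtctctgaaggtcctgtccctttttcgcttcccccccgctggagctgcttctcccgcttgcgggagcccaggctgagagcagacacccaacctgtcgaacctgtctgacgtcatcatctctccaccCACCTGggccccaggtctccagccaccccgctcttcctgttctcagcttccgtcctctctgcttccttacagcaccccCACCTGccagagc
AP1M2: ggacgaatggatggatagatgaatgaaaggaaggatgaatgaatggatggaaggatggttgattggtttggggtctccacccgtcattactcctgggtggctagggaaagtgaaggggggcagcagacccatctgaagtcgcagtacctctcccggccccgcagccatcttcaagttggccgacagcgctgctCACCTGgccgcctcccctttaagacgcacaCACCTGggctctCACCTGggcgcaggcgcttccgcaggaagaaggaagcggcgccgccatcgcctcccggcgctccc
ELF3: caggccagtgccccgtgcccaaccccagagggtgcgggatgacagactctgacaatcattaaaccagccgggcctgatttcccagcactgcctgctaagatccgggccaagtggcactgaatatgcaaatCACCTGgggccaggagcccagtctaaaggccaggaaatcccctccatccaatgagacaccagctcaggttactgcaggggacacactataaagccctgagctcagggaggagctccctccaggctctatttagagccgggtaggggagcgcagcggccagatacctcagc
KLK6: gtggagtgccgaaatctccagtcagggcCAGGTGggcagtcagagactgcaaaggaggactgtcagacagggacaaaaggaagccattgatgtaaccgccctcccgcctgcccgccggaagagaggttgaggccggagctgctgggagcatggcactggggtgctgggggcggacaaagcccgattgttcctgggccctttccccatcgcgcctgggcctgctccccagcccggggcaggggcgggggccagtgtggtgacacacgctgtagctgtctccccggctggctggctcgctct

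RAB25 and AP1M2 belong to the epithelial surface list of proteases, adhesion and trafficking genes, of which 15 of 16 fell, with a median of -6.02, and the other was called higher without HCC4006P1 replicate 1. RAB25, a small GTPase of epithelial recycling endosomes, had 124 and 107 CPM in HCC4006P1 and 0.0628 and 0.0637 CPM in HCC4006ER, which is a single count in each. AP1M2, the epithelial subunit of the AP-1 sorting adaptor, had 127 and 116 CPM against 0.314 and 0.573 CPM. ST14, the membrane protease matriptase, had 288 and 289 CPM against 0.817 and 0.637 CPM. Levels of all 3 genes lie close together within a cell line beside the gap between the cell lines. RAB25 was 1841-fold lower (95% counting interval 509 to 15206), and the log2 fold changes were -8.15 ± 0.23 (SE) for AP1M2 and -8.70 ± 0.19 for ST14. SPINT1, an inhibitor of matriptase, fell with it, from 415 and 359 CPM to 5.59 and 4.58 CPM. EPCAM, the epithelial adhesion molecule, kept a measurable level, with 487 and 464 CPM against 31.3 and 28.5 CPM.

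The kallikreins, mucins and CEACAMs, genes of secreted proteases and surface glycoproteins, had a median of -9.85, or -7.94 with genes at 0 taken at their bound, and all 8 tested of 18 fell. The median was -9.13 without HCC4006ER replicate 1, -8.78 without HCC4006ER replicate 2 and -4.45 with DESeq2, whose fit holds more of the low members. KLK6, whose promoter is shown above, had 347 and 380 CPM in HCC4006P1 and 0 counts in both HCC4006ER libraries, at least 3834-fold lower. KLK5, its neighbour on chromosome 19, had 42 and 41.8 CPM against 0 and was at least 442-fold lower, and KLK10, in the same cluster, was at least 136-fold lower. For these 3 genes the resistant libraries had no counts at all, while the parental replicates lie within 10% of each other. CEACAM6, a cell surface adhesion glycoprotein, was 3541-fold lower (95% counting interval 635 to 139903). MUC1, a membrane mucin, had 395 and 318 CPM against 32.1 and 26.5 CPM. The other members were near 0 in HCC4006ER. Most of those tested could therefore pass the filter on low counts only through HCC4006P1 and could not be called higher. Reads of close paralogs, as in the kallikrein and CEACAM families, can be assigned uncertainly.

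Cell junctions fell in each of the 3 lists. Of 18 tested tight junction genes 17 fell, with a median of -2.27, and CLDN7, a claudin of the seal between epithelial cells, had 215 and 201 CPM in HCC4006P1 and 1.19 and 1.27 CPM in HCC4006ER. CLDN7 fell by 7.47 ± 0.17 (SE, adjusted p 4.8e-06) on the log2 scale by edgeR's quasi-likelihood test with Benjamini-Hochberg adjustment. Of 10 adherens junction genes 6 fell and 1 rose, with a median of -1.08. The gene that rose was CTNNB1, which encodes beta-catenin, from 198 and 191 CPM to 264 and 261 CPM, and its change of 0.35 was not called without HCC4006ER replicate 1 (0.36) or replicate 2 (0.34), and 2 rose without HCC4006P1 replicate 2. Of 11 tested desmosome genes 9 fell and 1 rose, with a median of -1.84. EVPL, the plaque protein envoplakin, was 3630-fold lower (95% counting interval 651 to 143421), with 116 and 114 CPM against 0.0628 and 0 CPM. DSC3, a desmosomal cadherin, was the one that rose, from 10.6 and 7.61 CPM to 20.9 and 19.7 CPM.

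Cadherins changed members. CDH1, the E-cadherin of adherens junctions, had 549 and 610 CPM in HCC4006P1 and 10.7 and 12.9 CPM in HCC4006ER, and CDH3, the P-cadherin, 434 and 310 CPM against 6.85 and 7.83 CPM. CDH13, a cadherin anchored in the membrane by lipid, had 0 counts in both parental libraries and 91.9 and 93.6 CPM in the resistant ones. The resistant libraries are low where the parental ones are high for CDH1 and CDH3, and the reverse holds for CDH13, with no overlap. CDH13 was at least 1043-fold higher, and CDH6, a type II cadherin, went from 0.933 and 0.452 CPM to 33.1 and 28.8 CPM. The log2 fold change of CDH6 was 5.36, and 5.95 without HCC4006P1 replicate 1. CDH2, the N-cadherin, was present in HCC4006P1 already, with 59.7 and 69.8 CPM, and had 147 and 160 CPM in HCC4006ER. Of 11 tested cadherins 8 rose, 2 fell and the median was 3.94, or 3.76 with genes at 0 taken at their bound. It was 5.03 without HCC4006P1 replicate 1, 2.46 without HCC4006ER replicate 2 and 0.72 with DESeq2, whose fit holds more of the low members.

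Keratins fell, all 7 tested of 16, with a median of -3.69 (-1.94 with DESeq2), but not to a like extent. KRT8 and KRT18, the keratin pair of simple epithelia, kept more of their level than KRT7 or KRT19, with 3075 and 3485 CPM against 1228 and 1491 CPM for KRT8 and 1765 and 1874 CPM against 645 and 817 CPM for KRT18. KRT7 had 2307 and 2398 CPM in HCC4006P1 and 158 and 227 CPM in HCC4006ER. KRT19 fell by 9.61 ± 0.25 (SE) on the log2 scale, with adjusted p 5.7e-06 by edgeR's quasi-likelihood test with Benjamini-Hochberg adjustment, against 1.35 ± 0.16 for KRT8. Among 6 tested intermediate filament genes of other cells 4 rose and 1 fell (2 without HCC4006P1 replicate 2), with a median of 1.07. VIM, the filament of mesenchymal cells, was high in the parental libraries with 551 and 752 CPM and had 1780 and 1879 CPM in HCC4006ER. NES, which encodes nestin, was the one that fell, from 26.2 and 24.8 CPM to 1 count in each resistant library, 405-fold lower (95% counting interval 112 to 3346).

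**Figure D3:**
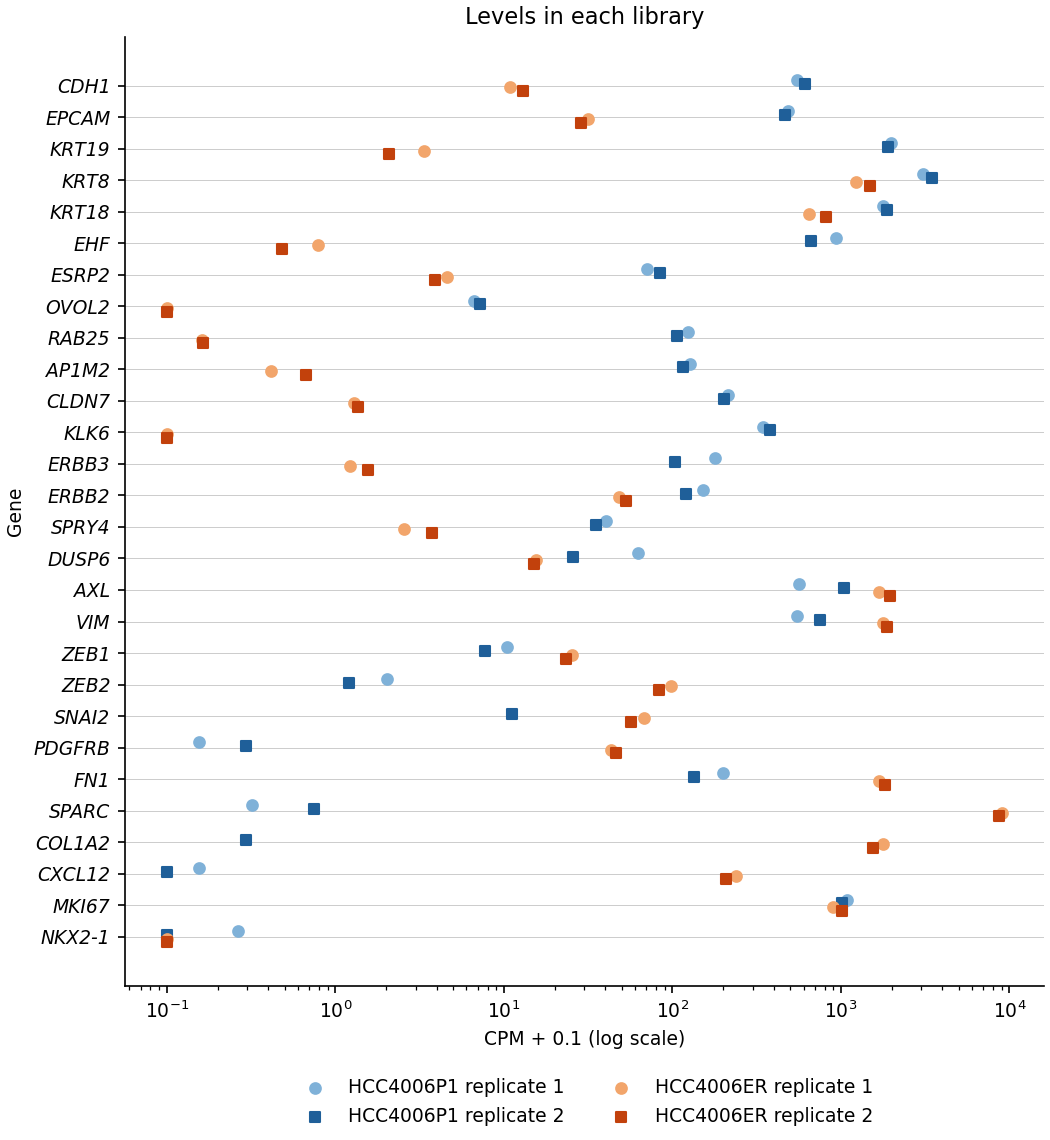
Level of 28 genes in each library as CPM plus 0.1 on a log axis, with parental libraries in blue, resistant libraries in orange, circles for replicate 1 and squares for replicate 2. The cell lines do not overlap for any gene drawn apart from MKI67 and NKX2-1, and genes of the missing stretch, SNAI2 and COL1A2, have no point for HCC4006P1 replicate 1. Of all 12791 genes tested with 4 libraries, 9882 do not overlap.

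Genes of the contractile cytoskeleton and of caveolae, the small pits of the cell membrane, were all called, 14 up and 5 down of 19, with a median of 0.87. CNN1, a calponin that binds actin in smooth muscle, had 0 counts in both parental libraries and 176 and 195 CPM in the resistant ones, at least 2082-fold higher. MYL9, the regulatory light chain of non-muscle and smooth muscle myosin, had 0.933 and 0.903 CPM against 66.9 and 66.6 CPM, and MYLK, the kinase that phosphorylates it, 73 and 82.7 CPM against 1702 and 1517 CPM. All 3 genes are far higher in both resistant libraries than in either parental one. The caveolin genes CAV1 and CAV2 fell, with 832 CPM in HCC4006P1 replicate 2 against 265 and 331 CPM for CAV1 and 282 CPM against 59.7 and 58.3 CPM for CAV2. ACTA2, the smooth muscle actin, had 3.18 and 1.87 CPM against 1.07 and 1.08 CPM. Its log2 change of -1.31 was not called without HCC4006P1 replicate 1 (-0.92), without HCC4006ER replicate 1 (-1.28) or without HCC4006ER replicate 2 (-1.34).

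Matrix genes rose. Of 30 tested collagen chains 21 rose and 6 fell, with a median of 2.72. COL1A2, a chain of type I collagen, had 0.194 CPM in HCC4006P1 replicate 2, which is 3 counts, and 1766 and 1541 CPM in HCC4006ER, 8545-fold higher (95% counting interval 2924 to 41437). COL3A1, of type III collagen, was 912-fold higher (252 to 7536), with 64.1 and 43.9 CPM in HCC4006ER. Both genes were at or near the limit of detection in HCC4006P1, and both HCC4006ER libraries are high. COL1A1, the other chain of type I collagen, was present in HCC4006P1 already. Among the collagens that fell were COL17A1, the hemidesmosome collagen, from 45.5 and 33.9 CPM to 1.95 and 1.66 CPM, and COL4A6 with 17.1 CPM in HCC4006P1 replicate 2 against 1.45 and 1.46 CPM.

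Of 26 tested genes of fibronectin and matricellular proteins, which sit in the matrix and act on cells, 16 rose and 6 fell, with a median of 1.62. SPARC, on chromosome 5, rose by 14.27 ± 0.33 (SE, adjusted p 4.8e-06, edgeR's quasi-likelihood test with Benjamini-Hochberg adjustment) on the log2 scale, by 13.60 without HCC4006P1 replicate 1 and by 15.20 without HCC4006P1 replicate 2. LUM, the proteoglycan lumican, was 1601-fold higher (95% counting interval 547 to 7766), and DCN, the proteoglycan decorin, was at least 177-fold higher. Both small proteoglycans of connective tissue were thus close to absent in HCC4006P1. THBS1, the adhesive glycoprotein thrombospondin, fell, from 2051 and 2731 CPM to 835 and 931 CPM, and so did LTBP2, a protein of elastic fibres, from 346 and 258 CPM to 45.3 and 37.2 CPM. Matrix proteases and their inhibitors also rose, 13 of 21 tested, with 5 down and a median of 1.44. MMP2, a gelatinase, had 46.7 and 37.7 CPM against 600 and 566 CPM, and ADAMTS1 5.98 and 10.5 CPM against 186 and 195 CPM. SERPINB5, the epithelial serpin maspin, had 38.2 and 52.3 CPM against 0.565 and 0.637 CPM.

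Receptors for matrix were exchanged. Of 16 tested integrin subunits 6 rose and 6 fell, with a median of 0.47. ITGA11, a subunit of a collagen receptor, had 1.87 and 1.23 CPM in HCC4006P1 and 155 and 133 CPM in HCC4006ER, and ITGA4 0.933 and 0.839 CPM against 24.7 and 22.8 CPM. ITGB6, a subunit restricted to epithelia, had 92.3 and 37.2 CPM against 0.628 and 0.573 CPM, and ITGA6, a subunit of the laminin receptor in hemidesmosomes, 774 and 697 CPM against 135 and 140 CPM. Both resistant libraries lie above the parental ones for ITGA11 and ITGA4 and below them for ITGB6 and ITGA6. The log2 fold change of ITGB6 was -6.80, and -6.06 without HCC4006P1 replicate 1. Of 11 laminin chains 2 rose and 7 fell, with a median of -0.57. LAMB3, a laminin chain of the epithelial basement membrane, had 891 and 1266 CPM against 34.2 and 31.8 CPM. LAMB2 rose, from 111 and 89.9 CPM to 274 and 256 CPM.

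Genes of TGF-beta, a growth factor that can induce EMT, changed in both directions. Of 8 tested ligands 4 rose (2 without HCC4006ER replicate 2) and 2 fell, with a median of 0.36. Of 21 receptors and SMADs 6 rose (11 without HCC4006P1 replicate 1) and 4 fell, with a median of 0.28. These shares, 28.6% up and 19% down, are near those of all genes tested, 26.4% up and 25.0% down. TGFB1 had 179 and 190 CPM in HCC4006P1 and 356 and 340 CPM in HCC4006ER, a log2 fold change of 0.83 ± 0.12 (SE). TGFBR1, the signalling receptor, had 19.2 CPM in HCC4006P1 replicate 2 and 105 and 104 CPM in HCC4006ER. The ligand and this receptor are higher in both resistant libraries. TGFBR2, the ligand-binding receptor, fell from 108 and 107 CPM to 69.7 and 67.8 CPM, a change of -0.72 that was not called without HCC4006ER replicate 2 (-0.73). TGFB2 was not called, with 78 and 33.3 CPM against 40.7 and 44.4 CPM and a log2 fold change of -0.46, and it was called without HCC4006P1 replicate 2 (-0.93) and turned to 0.23 without HCC4006P1 replicate 1. INHBA, a subunit of activin, had 1.03 CPM in HCC4006P1 replicate 2 against 11.3 and 12.1 CPM, and SMAD3, a mediator of the pathway, fell from 422 and 389 CPM to 208 and 215 CPM.

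Of 25 tested Wnt pathway genes 14 rose and 5 fell (2 without either HCC4006ER replicate), with a median of 0.72. WNT5B had 6.09 and 5.55 CPM in HCC4006P1 and 46.7 and 57.7 CPM in HCC4006ER, and LEF1, a transcription factor partner of beta-catenin, had 0 counts in both parental libraries and 3.52 and 2.74 CPM, at least 35.2-fold higher. WNT7B fell from 159 and 168 CPM to 82.9 and 80.5 CPM. Among 16 targets of YAP and TEAD, which respond to cell spreading, 7 rose and 3 fell, with a median of 0.38. Under total-count scaling 9 rose and 1 fell. The number that fell was 5 without HCC4006P1 replicate 1 and 1 without HCC4006ER replicate 1. AJUBA, a LIM protein of cell contacts, had 46.7 and 82 CPM against 254 and 267 CPM. CCN2, a secreted matrix protein often read as a YAP target, fell from 158 and 105 CPM to 83.2 and 88.7 CPM, with a log2 change of -0.69 that was not called without HCC4006ER replicate 1 (-0.63).

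**Figure D4:**
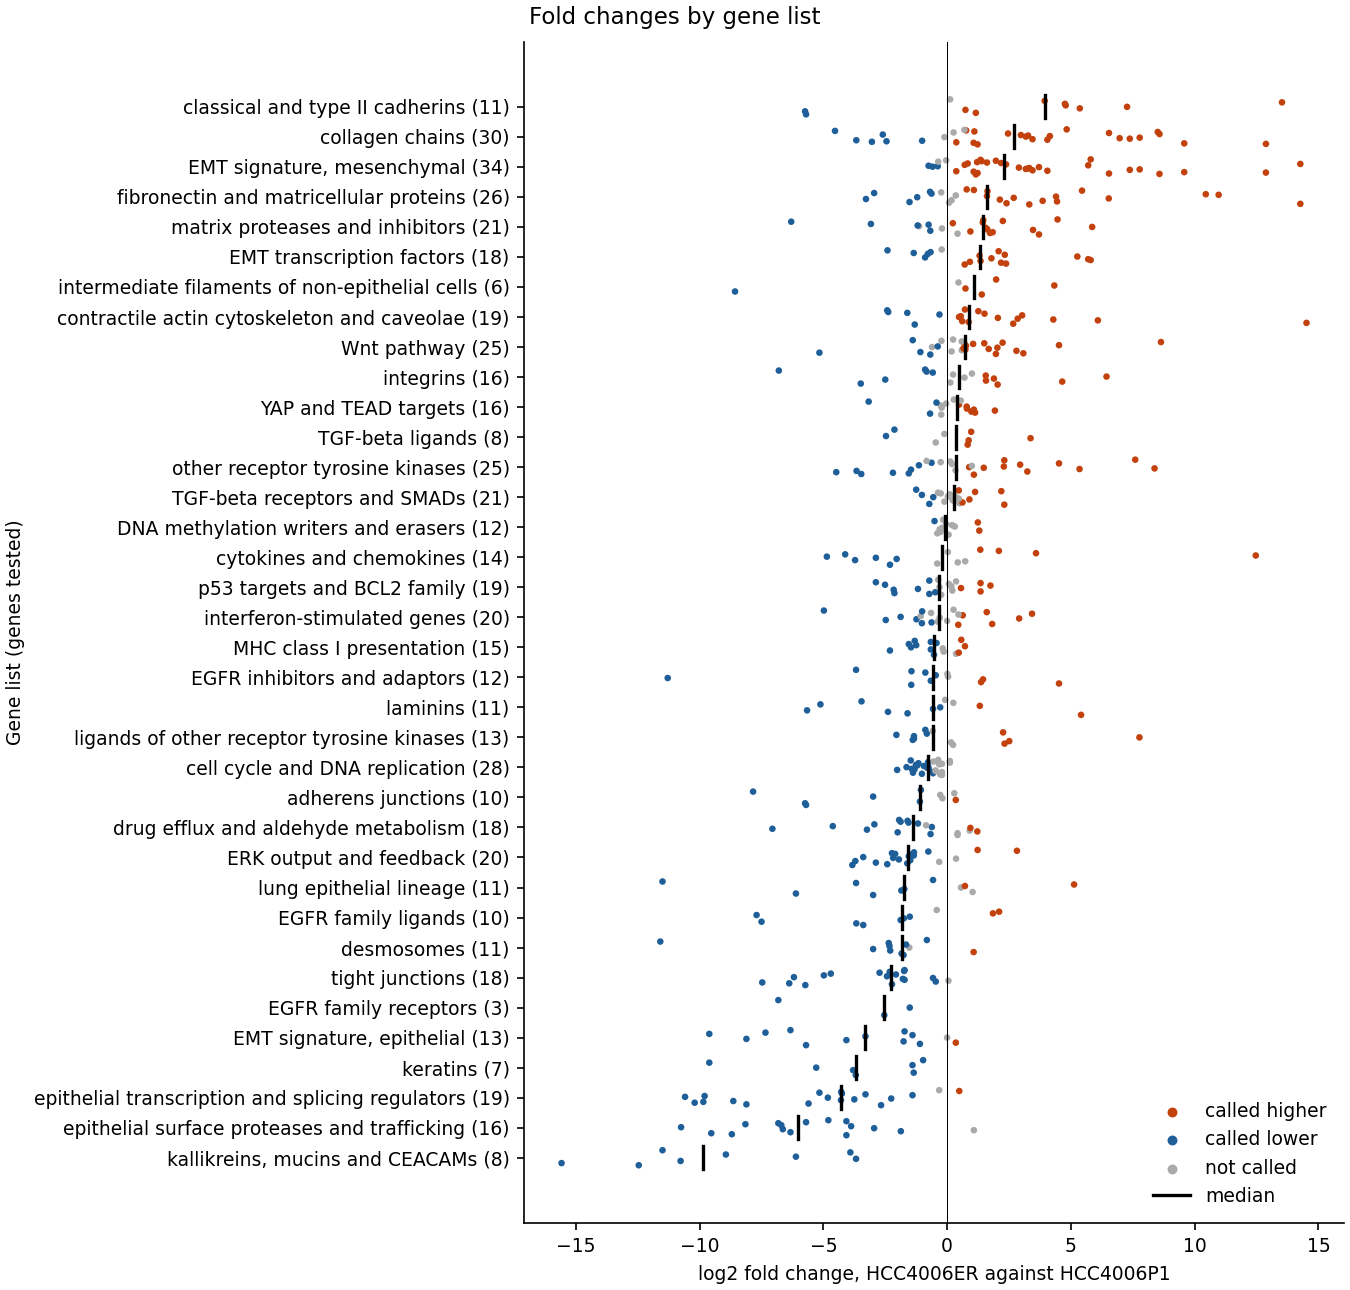
Fitted log2 fold change of HCC4006ER against HCC4006P1 for each tested gene of the lists other than the cell type markers, with genes called higher in orange, called lower in blue, not called in grey and the median as a black bar. Medians of the lists drawn run from -9.85 for the kallikreins, mucins and CEACAMs to 3.94 for the cadherins, and fitted values of genes at 0 in a cell line depend on the prior count.

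Genes of cell division and DNA replication fell, 17 of 28, with the others not called and a median of -0.76, and 1 was called higher without HCC4006P1 replicate 2. CDC6, a licensing factor of replication origins, had 72.1 and 120 CPM in HCC4006P1 and 20.2 and 30.1 CPM in HCC4006ER, and MCM5, a subunit of the replicative helicase, 145 and 207 CPM against 53.5 and 66.3 CPM. MKI67, the proliferation marker, was not called, with 1082 and 1009 CPM against 899 and 1012 CPM, a log2 fold change of -0.21, which was called without HCC4006P1 replicate 2 (-0.23). CDC6 and MCM5 were lower in both resistant libraries, where the level of MKI67 overlapped between the cell lines. Among 19 tested p53 targets and BCL2 family genes 4 rose and 8 fell (5 without HCC4006ER replicate 2), with a median of -0.31. BCL2L11, whose product BIM mediates cell death under EGFR inhibitors, had 21.9 and 22.3 CPM against 84.1 and 73.1 CPM, a log2 fold change of 1.75 ± 0.14 (SE). BCL2L1, which encodes the survival protein BCL-XL, had 408 and 661 CPM against 91.9 and 108 CPM.

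In a list of drug efflux, aldehyde metabolism and antioxidant genes 12 of 18 tested fell and 2 rose, with a median of -1.37. ALDH3A1, an aldehyde dehydrogenase, had 87.7 and 66.6 CPM in HCC4006P1 and 0.691 and 0.509 CPM in HCC4006ER, and ALDH1A3, which makes retinoic acid, 620 and 338 CPM against 50.1 and 56.3 CPM. Efflux transporters were divided, as ABCC3 fell from 207 and 160 CPM to 54 and 42.9 CPM and ABCC4 rose from 31.7 and 36.6 CPM to 84.7 and 83.3 CPM. Among 12 tested writers, erasers and related genes of DNA methylation 2 rose and 1 fell, so that 25% were called, against 51.3% of all genes tested. The median was -0.10, which is 0.00 under total-count scaling. Without HCC4006P1 replicate 1 the counts were 2 up and 3 down. It was 5 up and 3 down without HCC4006P1 replicate 2, and the member that fell, MBD4, was not called without either HCC4006ER replicate. TET1, an enzyme that oxidises methylcytosine, rose from 10.9 and 6.19 CPM to 23.1 and 21.5 CPM, and MBD3 rose by 1.24 on the log2 scale.

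Of 15 genes of antigen presentation on MHC class I 3 rose and 9 fell, with a median of -0.53, and 1 rose and 5 fell without either HCC4006ER replicate. TAP2, a subunit of the peptide transporter, had 57.6 and 58.8 CPM in HCC4006P1 and 21.6 and 23.2 CPM in HCC4006ER, and PSMB9, a subunit of the immunoproteasome, 30.4 and 20.3 CPM against 8.86 and 9.36 CPM. B2M, the light chain of MHC class I, had 1990 and 1479 CPM against 1159 and 1150 CPM, a log2 change of -0.66 that was not called without HCC4006ER replicate 1 (-0.66) or replicate 2 (-0.68). Interferon-stimulated genes were mixed, with 6 of 20 up, 7 down and a median of -0.34, and without HCC4006P1 replicate 1 the counts were 8 up and 7 down with a median of 0.20, and 12 fell without HCC4006P1 replicate 2. BST2, the membrane protein tetherin, had 89.8 and 75.1 CPM against 2.89 and 2.61 CPM, while IFI6 rose from 14.3 and 7.03 CPM to 84.2 and 85.9 CPM. Cytokines were mixed as well, with 4 of 14 tested up, 6 down and a median of -0.19, and without HCC4006P1 replicate 2 there were 7 up and 6 down with a median of 0.06. Without HCC4006ER replicate 2 the median was 0.19. CXCL12, a chemokine of stromal cells, had 0.0549 and 0 CPM against 237 and 207 CPM, 7497-fold higher (95% counting interval 1345 to 296167), and CXCL16 fell from 50.7 and 55.3 CPM to 2.83 and 3.63 CPM.

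Genes outside the lists went as far. Among protein-coding genes with a mean of at least 10 CPM in the higher cell line, the largest rises included ADAMTS12 and ADAMTS5, secreted metalloproteases of the matrix, with 186 and 188 CPM and with 161 and 128 CPM in HCC4006ER. Both had 0 counts in HCC4006P1, so that they were at least 2102-fold and at least 1626-fold higher. SLC1A7, a glutamate transporter, had 0 counts in HCC4006P1 and 114 and 105 CPM in HCC4006ER, at least 1230-fold higher, and FLI1, an ETS factor of blood and endothelial cells, was at least 377-fold higher with 33.3 and 33.7 CPM. GJA1, the gap junction protein connexin 43, had 0.0549 and 0.129 CPM against 613 and 504 CPM, 6286-fold higher (95% counting interval 2150 to 30482). The log2 fold change of GJA1 was 12.42, and 13.08 without HCC4006P1 replicate 2. COLEC12, a scavenger receptor, was at least 744-fold higher, and PDPN, the membrane glycoprotein podoplanin, at least 359-fold higher. In the missing stretch BEX1, on chromosome X, had 0 counts in HCC4006P1 replicate 2 and 278 and 311 CPM in HCC4006ER, at least 1523-fold higher against a floor of 3 counts in that library. All of these genes had at most 2 counts in a parental library and at least 10 CPM on average in HCC4006ER.

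Falls of like size were those of MPZL2, an epithelial adhesion molecule, with 93.1 and 59.2 CPM in HCC4006P1 and 0 in both HCC4006ER libraries, at least 803-fold lower. SCEL, the cornified envelope precursor sciellin, was 3274-fold lower (95% counting interval 587 to 129349), TC2N 3459-fold lower (620 to 136644) and ATP10A, a phospholipid flippase, 2223-fold lower (399 to 87837). The log2 fold change of TC2N was -11.46, -10.86 without HCC4006P1 replicate 1 and -10.59 without HCC4006ER replicate 1. ADGRF5, an adhesion receptor coupled to G proteins, had 292 and 184 CPM against 0.126 and 0.0637 CPM, 2553-fold lower (873 to 12382). TNFSF18, a cytokine of the TNF family, had 28.4 and 5.03 CPM against 0, at least 176-fold lower, with parental replicates that lie far apart. The bound for TNFSF18 is 53-fold without HCC4006P1 replicate 1 and 299-fold without HCC4006P1 replicate 2. In the missing stretch HS6ST2, a heparan sulfate sulfotransferase, was 2738-fold lower (491 to 108218) and FAM83A 1596-fold lower (441 to 13193). BSPRY had 63.9 CPM in HCC4006P1 replicate 2 and 0.188 and 0.255 CPM in HCC4006ER.

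The erlotinib pair was compared with the gefitinib pair by testing, for each gene, whether the change from HCC4006P1 to HCC4006ER differs from the change from HCC4006P2 to HCC4006GR. HCC4006P2 and HCC4006GR have 1 library each, with 13608332 and 15107338 counts on genes, and are assumed to vary like the other libraries. Of 14136 genes tested 3387 (24.0%) differed by edgeR's quasi-likelihood test with Benjamini-Hochberg adjustment, 1422 (10.1%) with a higher and 1965 (13.9%) with a lower value for the erlotinib pair. Under total-count scaling, which shifts the median difference by 0.19, the counts were 1756 higher and 1527 lower, so that the larger side changes. Without HCC4006P1 replicate 1 the count was 6382, and without HCC4006P1 replicate 2 it was 6606, with 3327 higher and 3279 lower. The difference was called lower for 14 of 15 epithelial surface genes, with a median difference of -5.85 and a median change of -0.21 within the gefitinib pair. It was called lower also for 16 of 20 interferon-stimulated genes (-2.30), 15 of 19 cytokines (-5.90, and -5.17 without HCC4006P1 replicate 1) and 10 of 15 genes of MHC class I presentation. In these immune lists the median change within the gefitinib pair was upward, by 1.79, 5.59 and 1.04. Within the erlotinib pair the medians were -0.34, -0.19 and -0.53 over the genes tested there. That test held 14 cytokines where this one held 19, as a gene can pass the filter here through 1 library of the gefitinib pair. The cytokine count and medians of this comparison can rest in part on such genes. Among epithelial markers, CDH1 had 599 CPM in HCC4006P2 and 614 CPM in HCC4006GR, where it fell between HCC4006P1 and HCC4006ER, and the difference of the log2 fold changes was -5.85 ± 0.30 (SE, adjusted p 4.4e-05, same test). KRT19 had 1233 and 958 CPM and EPCAM 428 and 333 CPM in the gefitinib pair, with differences of -9.36 ± 0.37 and -3.82 ± 0.23. These markers are near equal in the libraries of the gefitinib pair and far apart in those of the erlotinib pair.

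Other genes moved further in the gefitinib pair. ZEB1 had 0.731 CPM in HCC4006P2 and 17 CPM in HCC4006GR, and TWIST1 0.274 and 7.99 CPM, with differences of -3.29 ± 0.45 and -2.75 ± 0.52 (SE). HCC4006P1 had more of both than HCC4006P2 to begin with, while ZEB2 rose in the erlotinib pair by an amount that was not called different (-0.95, adjusted p 0.464, edgeR's quasi-likelihood test with Benjamini-Hochberg adjustment). MKI67 had 715 CPM in HCC4006P2 and 123 CPM in HCC4006GR, and the difference was 2.22 ± 0.24 (adjusted p 6.5e-04, same test). B2M had 1495 and 3179 CPM in the gefitinib pair, and its difference was -1.86 ± 0.27. SPARC had 514 and 1920 CPM in that pair, far above its level in HCC4006P1. Unlike the genes above it moved further in the erlotinib pair, with a difference of 12.26.

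**Figure D5:**
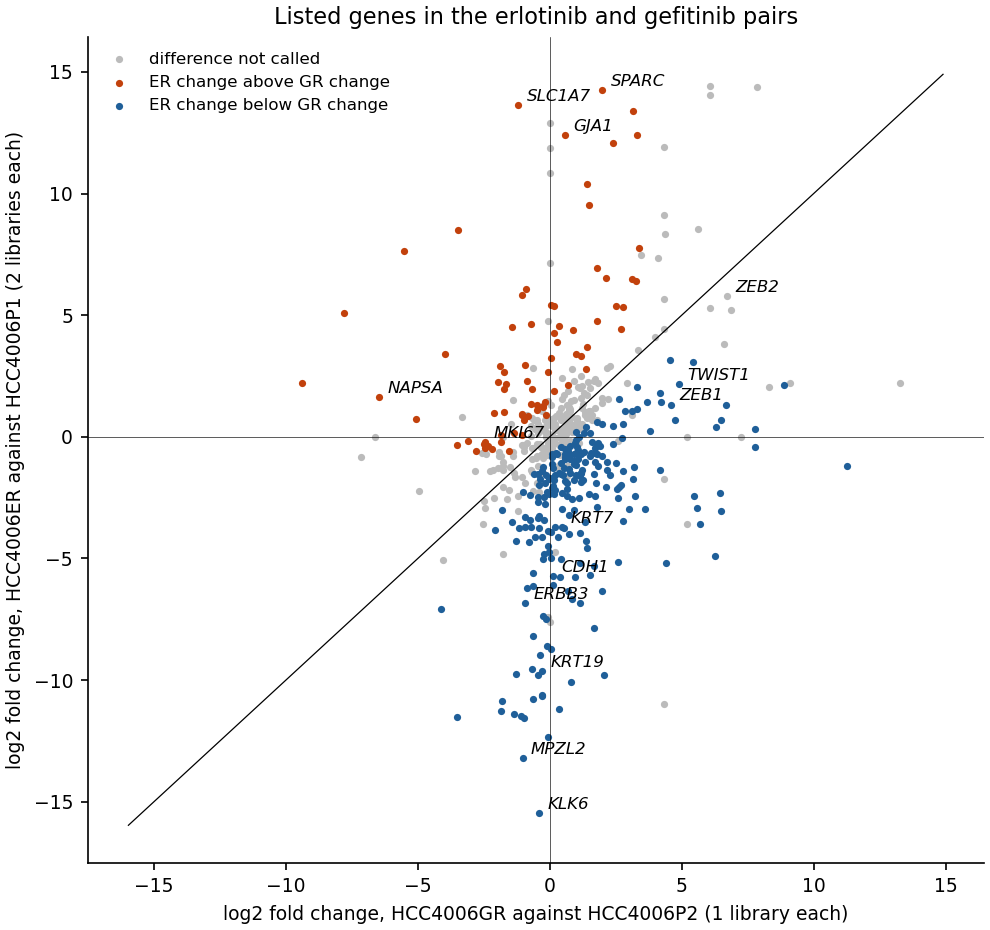
Fitted log2 fold change in the gefitinib pair on the x axis and in the erlotinib pair on the y axis for the listed and named genes counted in all libraries, coloured by whether the test called the difference of the changes. CDH1 and KRT19 lie near 0 on the x axis and low on the y axis, ZEB1 and TWIST1 lie to the right of the line of equal change, and fitted values of genes at 0 depend on the prior count.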

How the data were processed

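Messenger RNA was counted in 6 of the 21 libraries used here. The authors deposited counts of reads per gene, as whole numbers without normalization, for 53515 genes. By the submitters' processing notes they were made with TopHat, Bowtie, SAMtools and HTSeq on hg19. Symbols and positions on GRCh37 were matched for 45100 genes (84.3%). In the 4 libraries, reads assigned to no gene were between 7.8% and 9.95% of all counted, and ambiguous reads between 3.58% and 3.93%. Counting error alone does not describe the replicates, whose chi-square per degree of freedom was 34.5 for HCC4006P1 and 5.96 for HCC4006ER. Tests used edgeR 4.0.16 in R 4.3.3 (TMM factors on the genes before the point on chromosome 7, filterByExpr, quasi-likelihood test), with p-values adjusted over all genes tested. Alternatives ran in DESeq2 1.42.0 (limma was version 3.58.1), and tables and figures in Python 3.11.15 (pandas 2.3.3, numpy 2.4.6, matplotlib 3.10.9). The procedure was tested on simulated data.

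Genes to describe were drawn from the 12 protein-coding genes with the largest change each way among those called in all 4 pairings of libraries with a mean of at least 10 CPM, 5 each way for the missing stretch, up to 4 called members each way of each of 42 lists, and a fixed set of pathway genes. Only part of the genes so chosen are described, and some are not reported here. The members and lists were chosen with earlier results of these data known. HCC4006P1 replicate 1 was left out on the stretch it lacks, and the other 15 libraries are not analysed here. Alternatives were other scaling, other filters, DESeq2, a replicate block, zeros kept, a minimum fold change and leaving out each library.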

Additional observations from a re-analysis of the deposited data

Results flagged for a closer look

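The erlotinib pair and the gefitinib pair came from the same parental line, and the change between parental and resistant cells differed between the pairs for 3387 genes by the test of the difference. The differences below are the log2 fold change of HCC4006ER against HCC4006P1 minus that of HCC4006GR against HCC4006P2, each of which has 1 library and is assumed to vary like the others, as fitted, and those of genes at or near 0 depend on the prior count.

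Among receptors and feedback genes the difference was -5.91 for ERBB3, -1.07 for ERBB2 and -2.58 for SPRY4, and that for ERBB2 was not called without HCC4006ER replicate 1 (-0.99) or replicate 2 (-1.10). ERBB3 had 181 CPM in HCC4006P2 and 89.2 CPM in HCC4006GR. Cadherins and EPCAM differed by -5.85 for CDH1, -2.17 for CDH2 and -3.82 for EPCAM. CDH2 had 11.5 and 108 CPM in the gefitinib pair. Keratins differed by -9.36 for KRT19, -4.19 for KRT7 and -1.11 for KRT18, the last not called without HCC4006ER replicate 1 (-0.93). Epithelial regulators differed by -3.53 for ESRP2 and -8.45 for OVOL2, and the factors of EMT by -3.29 for ZEB1 and -2.75 for TWIST1. Among genes that fell from a mean of at least 10 CPM in HCC4006P1 the largest called differences were -15.07 for KLK6, -12.29 for KLK5 and -12.17 for MPZL2. KLK6 had 81.5 CPM in HCC4006P2 and 58.3 CPM in HCC4006GR. Among genes that rose to a mean of at least 10 CPM in HCC4006ER the largest called differences were 14.83 for SLC1A7, 12.26 for SPARC and 11.82 for GJA1. GJA1 had 172 and 241 CPM in the gefitinib pair. Without HCC4006P1 replicate 1 the difference was 11.59 for SPARC, and without HCC4006P1 replicate 2 it was 13.26 for SPARC and 12.53 for GJA1. B2M, the light chain of MHC class I, differed by -1.86. The proliferation marker MKI67 differed by 2.22.

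The lung lineage genes NAPSA and SFTPB differed by 8.10 and 2.92, and both were under 1 CPM in the 4 libraries of the erlotinib pair. At these low levels NAPSA was higher in HCC4006ER than in HCC4006P1, which also enters its difference. Both genes fell within the gefitinib pair. NAPSA had 177 CPM in HCC4006P2 and 1.88 CPM in HCC4006GR, and SFTPB 12.6 and 1.39 CPM. The difference was 8.85 for NAPSA without HCC4006P1 replicate 1, and that for SFTPB was not called without HCC4006ER replicate 1 (2.56).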

How the results depend on the processing

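No named gene reversed where it was called, and TGFB2 and DNMT1, not called, changed sign without a library. Over 258 results of named genes and 2547 tested values under the alternatives, 2417 kept the call or its absence, 123 lost the call and 7 gained it. Of those lost, 63 came from keeping the zeros of HCC4006P1 replicate 1, and 21 each from leaving out HCC4006ER replicate 1 or 2. Most named genes were chosen among called genes with large changes. A high kept share was therefore likely beforehand and does not describe the calls over all genes. Genes called with 4 libraries were 6265, and 3416 (1671 up, 1745 down) with the zeros kept. A minimum change of 2-fold gave 3506. Leaving out a library gave 4047 to 8370. Pairing the replicates by number as a block gave 7787 (3873 up, 3914 down), and the labels do not show that they pair. The differences between replicates correlated between the cell lines, at 0.482 over 10285 genes. Under the block 23 of 28 cell cycle and replication genes fell, where 17 fell without it. Total-count scaling gave 6241 (3427 up, 2814 down) and DESeq2 5488.

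On the missing stretch 1527 genes were called, 1554 with total-count scaling and 1032 with DESeq2. Leaving out an HCC4006ER library there leaves no test. For the difference between the pairs, 3387 genes were called, 3283 with total-count scaling, 2683 with DESeq2 and 2386 to 6606 without a library, the highest without HCC4006P1 replicate 2. The difference for ERBB2 was not called with total-count scaling (-0.89), nor that for SFTPB with DESeq2. The cause of these shifts was not tested. A gene under 3 counts over the 2 libraries of a cell line lies under the limit of detection. Without any counts there it was given the floor of 3 counts, and the fold change stated for it is a bound. With some counts there, up to 3, the ratio of the counts was given with its interval. Such ratios and the bounds are therefore not on the same scale.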

Other observations

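Non-coding transcripts changed as well, chosen after their values were seen. MIR205HG, the host transcript of the epithelial microRNA miR-205, had 78.3 and 41.3 CPM in HCC4006P1 and 1 count in each HCC4006ER library, 969-fold lower (95% counting interval 268 to 8010). MEG3, an imprinted long non-coding RNA, had 35.3 and 25.4 CPM against 791 and 733 CPM, a log2 fold change of 4.57. SNHG18, a small nucleolar RNA host, had 1.21 and 1.1 CPM against 48.5 and 55 CPM. Parental and resistant libraries do not overlap for any of them, as is true of 9882 of the 12791 genes tested with 4 libraries. CD44, the hyaluronan receptor, had 8742 and 7711 CPM against 552 and 647 CPM, a log2 fold change of -3.86, and 12273 and 11125 CPM in HCC4006P2 and HCC4006GR. CD44-AS1, which overlaps it on the other strand, had 17.2 and 7.81 CPM against 0.565 and 0.255 CPM, and reads of overlapping genes on opposite strands can be assigned to either if strand is not kept. The log2 fold change of CD44-AS1 was -4.98, -4.35 without HCC4006P1 replicate 1 and -5.63 without HCC4006ER replicate 1.

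By chromosome, genes that fell were most frequent on chromosome 15 among those tested with 4 libraries, with 273 of 452 (60.4%) down, 47 up and a median of -0.78. On the part of chromosome 7 before the counts end, 83 of 165 tested genes fell and 13 rose, with a median of -0.65. On chromosome 21, 60 genes rose and 16 fell, with a median of 0.36, and on chromosome 19, 385 rose and 143 fell, with a median of 0.35. Chromosome 9, tested with 3 libraries, had 341 of 655 genes up and 95 down, with a median of 0.49. Of the 25 mitochondrial genes tested with 3 libraries 19 fell, with a median of -1.03.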
